A study of Aphis gossypii with 6 samples.

Results

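The genes described here encode molecular chaperones and heat shock proteins of Aphis gossypii, the cotton or melon aphid, which feeds on the sap of many crops. They were taken from the table by product description alone, as genes whose text names a heat shock protein, DnaJ protein, T-complex protein 1, chaperonin, prefoldin, calreticulin, calnexin, endoplasmin, hypoxia up-regulated protein, crystallin or BAG family protein. Descriptions that name a transcription factor, a heat shock factor or a quinone were left out. The rule found 67 of the 14013 genes listed and used no measured value. RNA was sequenced from 6 libraries, 3 of a strain with resistance to beta-cypermethrin, a pyrethroid insecticide (RGL), and 3 of a sensitive strain whose genotype is labelled WT (SGL). Each library came from pooled whole bodies, and neither strain had been exposed to the insecticide. RGL was a population from the field. Each condition is thus a single strain, and a difference between the strains cannot be tied to resistance.

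Chaperones bind proteins that are unfolded or partly folded and help them to reach or keep their shape. In the cytosol, DnaJ proteins hand clients to Hsp70, Hsp90 finishes the folding of signalling proteins and receptors, prefoldin delivers new actin and tubulin to the T-complex protein 1 ring (TCP-1, also called CCT), and small heat shock proteins hold unfolded proteins until they can be refolded. Separate sets serve the mitochondrion and the endoplasmic reticulum (ER), where secreted and membrane proteins fold. Some family members are induced by heat and other stress through heat shock factor, whereas the cognate forms are made at all times.

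The libraries held 31290134 to 46681719 counts, and 11149 genes passed the filter on low counts and were tested. Levels in each library are given as CPM, counts brought to a common library total and scaled by the trimmed mean of M-values (TMM), which offsets differences in library composition. Differences are log2 fold changes of RGL over SGL with their standard error (SE), and a gene was called when its adjusted p was under 0.05 in edgeR's quasi-likelihood test with Benjamini-Hochberg adjustment over all genes tested. Nothing in the labels says that the 3 libraries of 1 strain were grown or pooled apart, and the p-values therefore measure only how far these samples spread, which may be technical. RGL replicate 1 stood apart from the other RGL libraries: a chi-square of its counts per degree of freedom was 101 against replicate 2 and 127 against replicate 3, while it was 19.8 between RGL replicates 2 and 3 and 7.05 to 8.29 between SGL libraries. Calls and signs of chaperone genes that turn on it are given with and without it. In whole bodies, fewer cells of a type and less RNA per cell cannot be told apart. Markers of several tissues moved with strain. For comparison, 21.4% of all genes tested were higher and 14.4% lower in RGL. The 53 cuticle genes tested summed to 39311, 25490 and 22648 CPM in RGL replicates 1 to 3 and to 15966 to 16498 CPM in SGL, with 32 higher and 3 lower, and none of the 55 listed was at 0 in all libraries. The 28 gut genes tested summed to 11178 to 14424 CPM in RGL and 3980 to 4231 CPM in SGL, with 25 higher and none lower in edgeR (none lower at an unadjusted p under 0.05, in DESeq2 or in limma-voom either), and 2 of the 32 listed were at 0 in all libraries. Of 12 nerve genes, 4 were higher and 3 lower, and their sums were 701 to 835 CPM in RGL and 668 to 681 CPM in SGL. Of 11 muscle genes, 3 were higher and 2 lower, and their sums were 7682 to 9216 CPM in RGL and 7568 to 7968 CPM in SGL. Of 9 germline genes tested of 12 listed, 1 was called, higher in RGL, and the sums were 658 to 707 CPM in RGL and 601 to 642 CPM in SGL. Nerve and germline sums, like those of cuticle and gut, did not overlap between the strains, and no nerve, muscle or germline gene was at 0 in all libraries. The part of tissue makeup in the chaperone values was not tested.

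Of the 67 chaperone genes, 63 passed the filter. In RGL, 20 of them were higher and 3 were lower. That is 31.7% higher, where 21.4% of all genes tested were, and 4.76% lower, where 14.4% were. Changes were small: log2 fold changes ran between -0.57 and 0.79, with a median of 0.12 for the chaperones and -0.00 for all genes tested. None reached 2-fold in either direction with edgeR, DESeq2 or limma-voom, nor at an unadjusted p under 0.05 (23 higher and 6 lower at any fold), whereas 8.31% of all genes rose and 1.96% fell by 2-fold or more. RGL and SGL libraries did not overlap for 25 chaperones with RGL above SGL (39.7%, against 28.2% of all genes) and for 8 with RGL below SGL (12.7%, against 25.8%). In the authors' deposited table, 21 of 63 chaperones were higher and 6 lower at a false discovery rate under 0.05, where 24.0% and 19.8% of all genes were. Without RGL replicate 2, or without any 1 of the SGL libraries, only 1 chaperone was called lower, and 11 were called higher without SGL replicate 3. Calls fell over the whole table as well, from 2383 higher and 1611 lower with all libraries. They were 1922 and 1173 without RGL replicate 2, and 1593 to 1692 and 788 to 812 without 1 SGL library. Without RGL replicate 1 the chaperone counts were 27 higher and 11 lower, and 3249 and 2826 genes were called higher and lower in the whole table. With scaling by library totals and no TMM, all genes had a median of -0.15 and the chaperones one of -0.035, so its sign turned while it stayed 0.12 above all genes. The calls then split into 12 higher and 6 lower, so that 66.7% of called chaperones were higher, in place of 87.0%. Over all genes the same change gave 1759 higher and 2322 lower, so that 43.1% of calls were higher, in place of 59.7%.

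**Figure D1:**
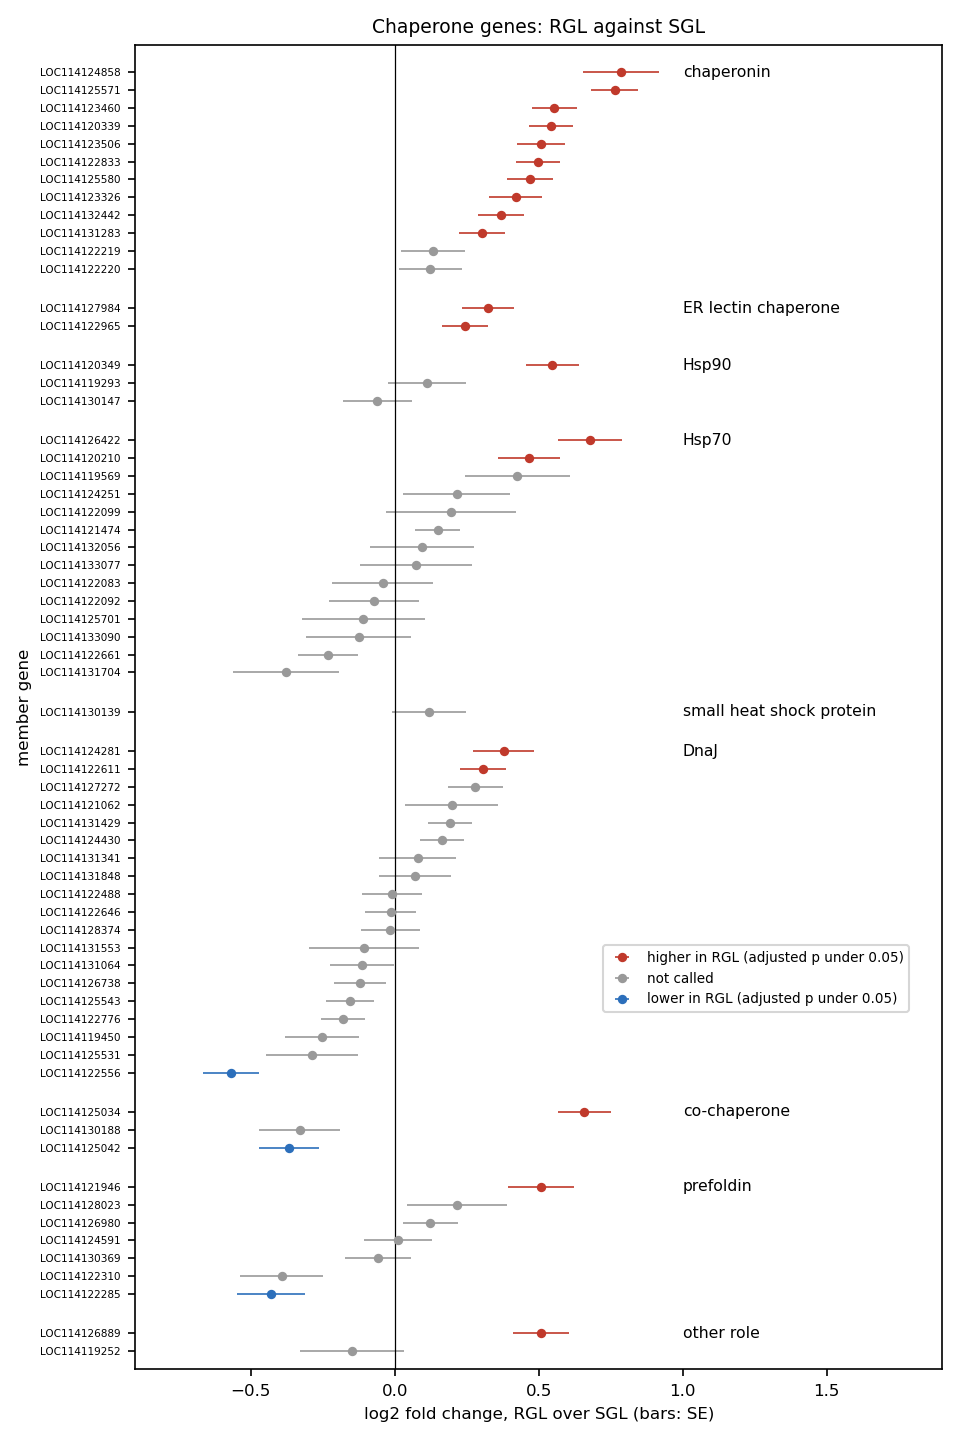
Log2 fold change of RGL over SGL (horizontal axis) for the 63 tested chaperone genes (vertical axis), grouped by class, with bars for the SE of edgeR's quasi-likelihood test. Red points are the 20 genes higher in RGL, blue points the 3 lower and grey points the rest; 10 of the 12 chaperonin genes lie to the right of 0 in red, while most Hsp70 and DnaJ genes are grey.

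The 4 genes below the filter were at or near 0 in both strains. A partial calreticulin-like gene (LOC114124918) had no count in any library. A DnaJ homolog subfamily B member 4-like gene (LOC114129788) had 2, 3 and 2 counts in RGL and 0, 4 and 3 in SGL. Of a pair of subfamily B member 13-like genes, LOC114130905 had 0, 0 and 2 counts in RGL and 9, 2 and 0 in SGL, and LOC114130915 had 0, 8 and 4 counts in RGL and 5, 2 and 5 in SGL. No difference was detectable at this depth.

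On the per-length scale of the deposited FPKM (fragments per length of transcript and per library total, not adjusted for library composition), a few genes carried most of the chaperone RNA. Hsp70 genes held 49.5% of the summed chaperone FPKM in RGL and 51.6% in SGL, chaperonins 13.8% in RGL and 10.8% in SGL, and Hsp90 genes 10.6% in RGL and 9.8% in SGL. DnaJ genes held 12.9% in RGL and 16.1% in SGL. The most abundant gene was heat shock 70 kDa protein cognate 4 (LOC114122092), at 2353 ± 239 FPKM in RGL and 2749 ± 46.6 FPKM in SGL (SD, n = 3 each). Next came its cognate 4-like relative (LOC114122083), at 1165 ± 180 FPKM in RGL and 1336 ± 21.3 FPKM in SGL. Heat shock protein 83 (LOC114119293), the cytosolic Hsp90, and DnaJ homolog subfamily A member 1 (LOC114122556) followed, and their order turned between the strains: Hsp83 stood at 882 ± 54.7 FPKM and the DnaJ gene at 609 ± 25.9 FPKM in RGL, against 904 ± 11.8 FPKM and 994 ± 8.44 FPKM in SGL. All chaperones together took 2.12% to 2.32% of the counts in RGL libraries and 2.37% to 2.40% in SGL libraries. On this scale, which is not adjusted for composition, the share was lower in every RGL library. On the TMM scale on which genes were called, the chaperones summed to 27028, 21804 and 21098 CPM in RGL replicates 1 to 3 and to 22499 to 22636 CPM in SGL, so that RGL replicate 1 was the highest library and the other RGL libraries were below SGL.

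**Figure D2:**
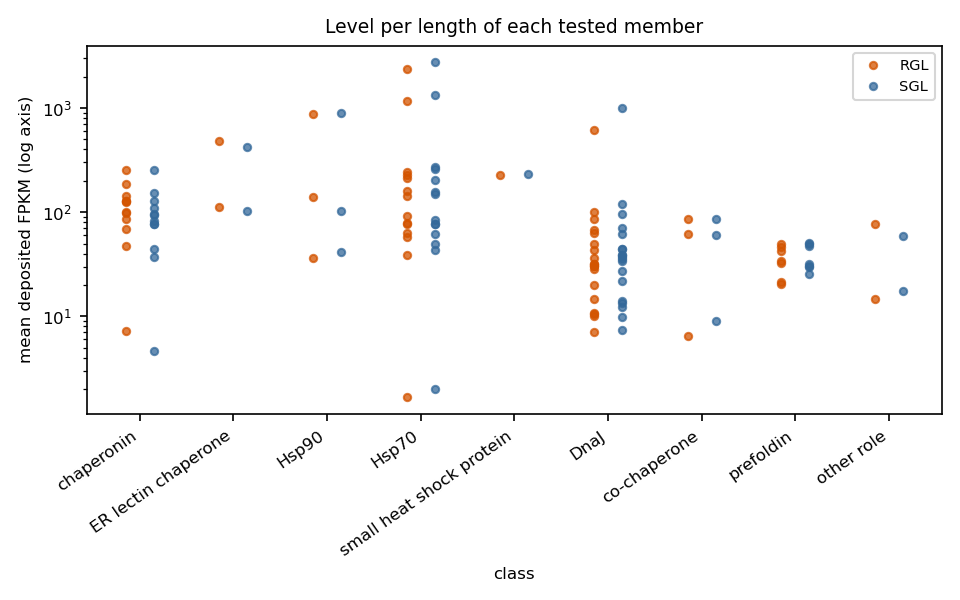
Mean deposited FPKM (vertical log axis) of each of the 63 tested chaperone genes by class (horizontal axis), with one point per gene, orange for RGL on the left and blue for SGL on the right; the points are means of 3 libraries with no error bars. Hsp70 holds the highest point, cognate 4 at 2353 FPKM in RGL and 2749 FPKM in SGL, and the top DnaJ point is subfamily A member 1 at 609 FPKM in RGL and 994 FPKM in SGL.

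The chaperonins were the class with most calls. Chaperonins are barrel-shaped complexes that enclose a client while it folds; TCP-1 is the ring of the cytosol, built of different subunits, and Hsp60 with its Hsp10 lid is that of the mitochondrion. All 9 genes described as TCP-1 subunits, which name 7 kinds of subunit, were higher in RGL, and the libraries of the strains did not overlap for any of the 9. Over all genes tested, 21.4% were higher, and 28.2% had no overlap with RGL above SGL. The log2 fold changes of the 9 genes ran from 0.30 to 0.79 with a median of 0.51. The summed level of the 9 genes was 1741, 1641 and 1749 CPM in RGL replicates 1 to 3, against 1202, 1241 and 1191 CPM in SGL replicates 1 to 3. RGL replicate 1 did not stand out among these values, and all 9 calls were made without it.

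The alpha subunit gene (LOC114125571) had 160.1, 140.1 and 148 CPM in RGL and 87.1, 88.9 and 88.0 CPM in SGL. Each RGL library was above each SGL library, and the gene was 1.70-fold higher in RGL (log2 fold change 0.76 ± 0.08, adjusted p = 0.0003). A gamma-like gene of low abundance (LOC114124858) had 15.9, 16.8 and 17.6 CPM in RGL and 10.1, 8.86 and 10.2 CPM in SGL. Its log2 fold change was 0.79 ± 0.13 (adjusted p = 0.00247), the greatest among the chaperones, at a level of 7.28 ± 1.02 FPKM in RGL and 4.62 ± 0.40 FPKM in SGL. The theta subunit gene (LOC114123460) had 262, 248 and 268 CPM in RGL and 168, 184 and 178 CPM in SGL (log2 fold change 0.55 ± 0.08, adjusted p = 0.00118). Here too the strains did not overlap. The beta subunit gene (LOC114120339) had 290.3, 279 and 298 CPM in RGL and 199.9, 201 and 195 CPM in SGL (log2 fold change 0.54 ± 0.08, adjusted p = 0.00104). For the delta subunit gene (LOC114123506) the levels were 318, 285 and 293 CPM in RGL and 201, 220.3 and 209 CPM in SGL (log2 fold change 0.51 ± 0.08, adjusted p = 0.00239). It was the most abundant subunit gene per length, at 143 ± 6.76 FPKM in RGL and 111 ± 4.75 FPKM in SGL.

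The eta subunit gene (LOC114122833) averaged 100.1 ± 9.59 FPKM in RGL and 77.7 ± 2.80 FPKM in SGL, with a log2 fold change of the scaled counts of 0.50 ± 0.08 (adjusted p = 0.00169). An alpha-like gene (LOC114125580) was at 88.6, 83.6 and 90.7 CPM in RGL and 63.9, 64.5 and 61.4 CPM in SGL (log2 fold change 0.47 ± 0.08, adjusted p = 0.00294). The second gamma-like gene (LOC114132442) was at 217, 205 and 224 CPM in RGL and 175, 164 and 162 CPM in SGL (log2 fold change 0.37 ± 0.08, adjusted p = 0.00809). The zeta subunit gene (LOC114131283), at 186, 183 and 202 CPM in RGL and 156, 158 and 149 CPM in SGL, moved least (0.30 ± 0.08, adjusted p = 0.0191). The calls of the last 2 genes were lost when libraries were scaled by their totals alone, with an adjusted p of 0.100 for the gamma-like and 0.26 for the zeta gene. They were also lost without SGL replicate 3, and that of zeta without SGL replicate 1 or 2 as well, so that 7 to 9 of the 9 calls stood when a library was left out. With the replicate number as a block the zeta call was lost too. Because genes of like name could share reads, the pairs were also summed: the alpha genes together averaged 237 ± 12.6 CPM in RGL and 151 ± 1.98 CPM in SGL, and the gamma genes 232 ± 10.1 CPM in RGL and 177 ± 6.98 CPM in SGL (SD, n = 3 each). Both sums were thus higher in each RGL library than in any SGL library. T-complex protein 11-like protein 1 (LOC114119252), which the text pattern also took in, is no TCP-1 subunit. It had 25.2, 40.1 and 41.9 CPM in RGL and 41.0, 39.6 and 38.4 CPM in SGL (-0.15 ± 0.18, adjusted p = 0.551), and its log2 fold change was 0.047 without RGL replicate 1.

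**Figure D3:**
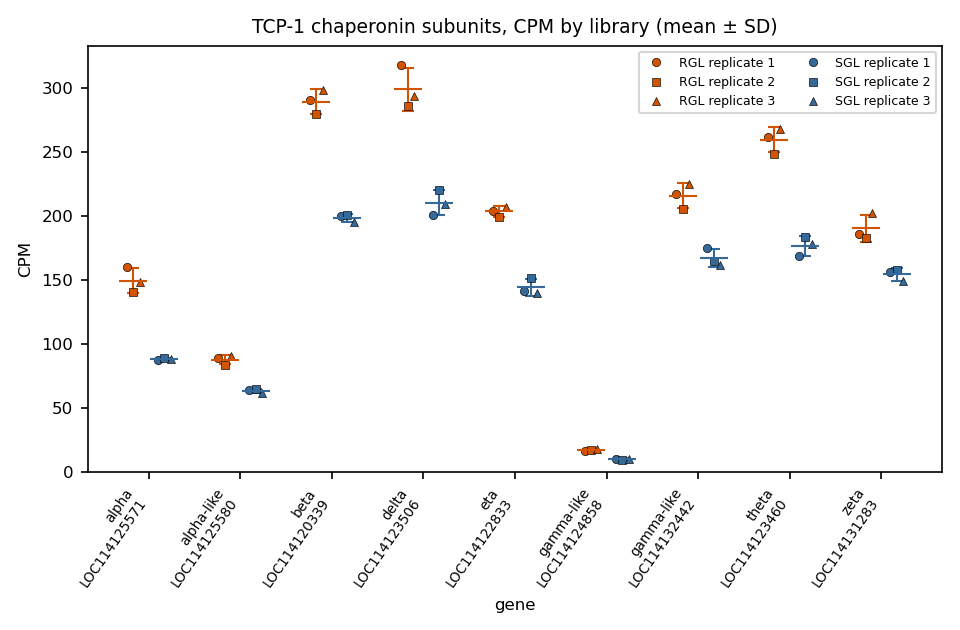
CPM (TMM-scaled, linear axis) of the 9 TCP-1 subunit genes, with a marker for each library, a line for the mean and bars for the SD (n = 3), RGL in orange left of SGL in blue for each gene. In all 9 genes the RGL markers lie above the SGL markers, with the alpha gene at 140.1 to 160.1 CPM in RGL and 87.1 to 88.9 CPM in SGL.

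The mitochondrial chaperonin and its lid did not show the same calls. Heat shock protein 60A (LOC114123326), the ring subunit, had 519.8, 452 and 464 CPM in RGL and 351, 377 and 346 CPM in SGL (log2 fold change 0.42 ± 0.09, adjusted p = 0.00924). The 3 RGL libraries were all above those of SGL. The call was lost without SGL replicate 1 or 3, where the adjusted p was at most 0.0698. A pair of 10 kDa heat shock protein genes, which encode the lid, was not called: LOC114122219 had 169, 131 and 141 CPM in RGL and 137, 141 and 124 CPM in SGL (0.13 ± 0.11, adjusted p = 0.378), and LOC114122220 had a log2 fold change of 0.12 ± 0.11 (adjusted p = 0.406). The strains overlapped in both. Whether Hsp60A and the lid genes differed from each other in their response was not tested.

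Of the ER chaperones matched by the rule, the 4 tested outside the DnaJ family were all higher in RGL, with a median log2 fold change of 0.40. Over all genes tested, 21.4% were higher. These 4 are the ones counted below as ER chaperones, and they belong to 3 families. DnaJ genes with ER homologs in mammals are described further on. With all libraries none of them was called in the main edgeR fit, though some were in alternative settings. Endoplasmin (LOC114120349), the Hsp90 of the ER, had 449, 514 and 517 CPM in RGL and 346, 335 and 331 CPM in SGL (0.55 ± 0.09, adjusted p = 0.00249). Hypoxia up-regulated protein 1 (LOC114120210), a large Hsp70 relative of the ER that also acts as an exchange factor for BiP, had 255, 311 and 331 CPM in RGL and 222, 212 and 214 CPM in SGL (0.47 ± 0.11, adjusted p = 0.0109). In both genes RGL replicate 1 was the lowest RGL library and still lay above all SGL libraries. Calreticulin (LOC114127984), a lectin that binds newly made glycoproteins, had 1140, 1181 and 1237 CPM in RGL and 964, 936 and 943 CPM in SGL (0.32 ± 0.09, adjusted p = 0.0248). Calnexin-like (LOC114122965), its membrane-bound counterpart, had 238, 229.8 and 256 CPM in RGL and 199, 204 and 208 CPM in SGL (0.24 ± 0.08, adjusted p = 0.044). The strains did not overlap for either lectin. With library totals alone only endoplasmin remained called, at a log2 fold change of 0.40 (LOC114120349, adjusted p = 0.031). The other log2 fold changes were then 0.33 for hypoxia up-regulated protein 1 (LOC114120210, adjusted p = 0.111), 0.18 for calreticulin (LOC114127984, adjusted p = 0.192) and 0.097 for calnexin-like (LOC114122965, adjusted p = 0.468). All 4 were called without RGL replicate 1, but 2 of the 4 without RGL replicate 2, RGL replicate 3 or SGL replicate 1, and 1 of the 4 without SGL replicate 2 or 3. With the replicate number as a block 2 of the 4 were called. The calnexin-like call was also lost without the filter on low counts.

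**Figure D4:**
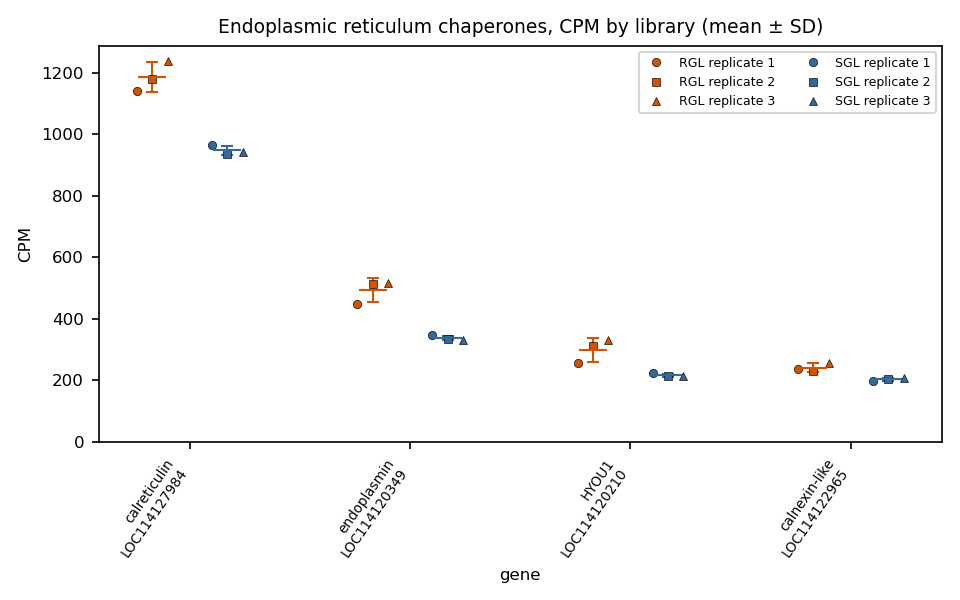
CPM (TMM-scaled, linear axis) of the 4 ER chaperone genes outside the DnaJ family, where HYOU1 is hypoxia up-regulated protein 1, with a marker for each library, a line for the mean and bars for the SD (n = 3), RGL in orange left of SGL in blue. RGL markers lie above SGL markers in each gene, as for endoplasmin at 449 to 517 CPM in RGL and 331 to 346 CPM in SGL.

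Some chaperones are not matched by the rule because their descriptions name no family, and 2 of them were chosen for description after their values were seen. Endoplasmic reticulum chaperone BiP (LOC114123932), the ER Hsp70 that binds nascent chains and restrains the ER stress sensors, had 1062, 1064 and 1108 CPM in RGL and 523, 583 and 531 CPM in SGL. It was 1.98-fold higher in RGL (0.98 ± 0.09, adjusted p = 0.000158), more than any chaperone matched by the rule, and was called in 13 of 13 alternative settings. The mitochondrial stress-70 protein (LOC114124715), the Hsp70 of that organelle, had 586, 573 and 572 CPM in RGL and 421, 463 and 439.6 CPM in SGL (0.39 ± 0.09, adjusted p = 0.00885), and was called in 10 of the 13 (adjusted p at most 0.0649).

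Few genes of the Hsp70 family were called. The values of most of its cytosolic forms turn on RGL replicate 1, though not those of B2-like or heat shock 70 kDa protein 4. Whether heat shock 70 kDa protein 4 was called does turn on that library, as given below. Of 14 Hsp70 genes, 2 were higher in RGL (14.3%, where 21.4% of all genes tested were), namely hypoxia up-regulated protein 1 and heat shock protein 70 B2-like. None was lower in edgeR (where 14.4% of all genes tested were), in DESeq2, in limma-voom or at an unadjusted p under 0.05. The B2-like gene (LOC114126422) had 240.3, 197 and 183 CPM in RGL and 124, 130.4 and 133 CPM in SGL. It was 1.60-fold higher in RGL (0.68 ± 0.11, adjusted p = 0.00233), with each RGL library above each SGL library.

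Across the 10 genes described as A1-like, B2-like, Hsp68-like or cognate 4, RGL replicate 1 was the highest RGL library in every one, where it was in 42.0% of all genes tested. The median log2 ratio of replicate 1 over the mean of replicates 2 and 3 was 0.67 for these genes and -0.02 for all genes. Summed, the 10 genes reached 15060, 10600 and 9752 CPM in RGL replicates 1 to 3 and 11915, 11943 and 11990 CPM in SGL replicates 1 to 3. Replicate 1 was therefore above all SGL libraries and the other RGL libraries were below them. Copies of such genes are near-identical in many animals. How alike these 10 are, and how reads that match several copies were counted, was not measured here, so the split between copies is uncertain and the 10 may not be independent. The cuticle markers showed the same order of RGL libraries, with a median log2 ratio of 0.71 and replicate 1 highest in 49 of 53, and their part in the Hsp70 values was not tested.

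Cognate 4, the form made without stress, had 7469, 5582 and 5149 CPM in RGL and 6378, 6347 and 6407 CPM in SGL (-0.07 ± 0.16, adjusted p = 0.746). The cognate 4-like gene (LOC114122083) had 3138, 2123 and 1991 CPM in RGL and 2498, 2553 and 2414 CPM in SGL (-0.04 ± 0.18, adjusted p = 0.871). In both, RGL replicate 1 was the highest of all libraries and RGL replicates 2 and 3 the lowest. Heat shock protein 68-like (LOC114131704) had 217, 144 and 124 CPM in RGL and 214, 205 and 212 CPM in SGL (-0.38 ± 0.19, adjusted p = 0.146). Among the A1-like genes, LOC114119569 had 344, 234 and 198 CPM in RGL and 189.9, 191 and 196 CPM in SGL (0.43 ± 0.18, adjusted p = 0.102), with no overlap between the strains. LOC114133090 had 803, 514 and 484 CPM in RGL and 636, 662 and 668 CPM in SGL (-0.13 ± 0.18, adjusted p = 0.621). RGL libraries thus spanned those of SGL for this copy. LOC114133077, which lies 1 gene away from it in the RefSeq table, had 928, 576 and 542 CPM in RGL and 635, 646 and 662 CPM in SGL (0.07 ± 0.19, adjusted p = 0.792). The other A1-like genes had log2 fold changes of 0.21 (LOC114124251, adjusted p = 0.394), 0.19 (LOC114122099, adjusted p = 0.529) and 0.09 (LOC114132056, adjusted p = 0.707). None of the 6 A1-like genes was called by edgeR, DESeq2 or limma-voom, and 1 had an unadjusted p under 0.05.

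Without RGL replicate 1, 7 of the 14 Hsp70 genes were lower in RGL and 4 were higher, by edgeR's quasi-likelihood test on 5 libraries. In that setting 2826 of all 11352 genes tested were lower and 3249 were higher. The lower Hsp70 genes included both cognate genes, with log2 fold changes of -0.25 for cognate 4 (LOC114122092, adjusted p = 0.00145) and -0.27 for cognate 4-like (LOC114122083, adjusted p = 0.000589). Hsp68-like (LOC114131704) was at -0.65 (adjusted p = 1.05e-07) and LOC114133090 at -0.39 (adjusted p = 1.19e-05). The remaining 3 were A1-like copies whose sign turned: LOC114122099 was at -0.16 (adjusted p = 0.037), LOC114132056 at -0.16 (adjusted p = 0.0437) and LOC114133077 at -0.21 (adjusted p = 0.00387). The sign of LOC114124251 turned too, at -0.045, but it was not called (adjusted p = 0.587). The 4 higher ones were B2-like at 0.56 (LOC114126422, adjusted p = 2.34e-07), hypoxia up-regulated protein 1, LOC114119569 at 0.17 (adjusted p = 0.0378) and heat shock 70 kDa protein 4 (LOC114121474), an exchange factor of the Hsp110 kind, at 0.16 (adjusted p = 0.0234). With all 6 libraries the last gene had 354, 354 and 361 CPM in RGL and 316, 318 and 331 CPM in SGL (0.15 ± 0.08, adjusted p = 0.165). The 2 other Hsp70 genes were not called: the 14-A-like gene (LOC114122661) had a log2 fold change of -0.23 ± 0.10 (adjusted p = 0.118) and the 12A-like gene (LOC114125701), at 3.93 to 5.96 CPM in RGL and 4.78 to 6.35 CPM in SGL, one of -0.11 ± 0.21 (adjusted p = 0.718).

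**Figure D5:**
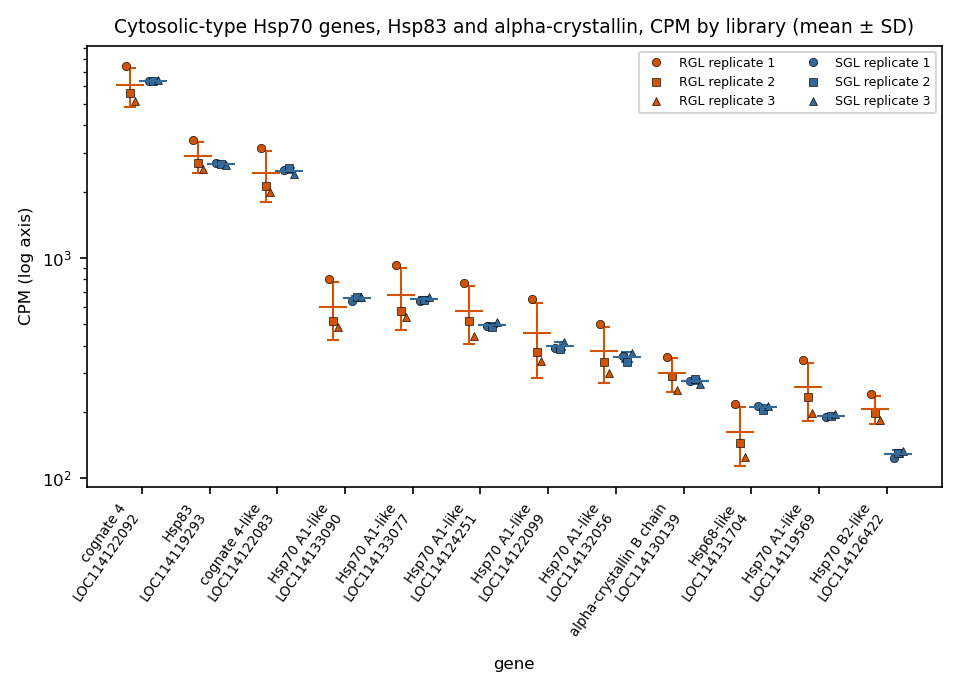
CPM (TMM-scaled, log axis) of the 10 Hsp70 genes described as A1-like, B2-like, 68-like or cognate 4, and of Hsp83 and the alpha-crystallin B chain gene, with a marker for each library, a line for the mean and bars for the SD (n = 3), RGL in orange left of SGL in blue. RGL replicate 1 (circle) is the highest RGL marker in every gene shown; for cognate 4 it is at 7469 CPM, where RGL replicates 2 and 3 are at 5582 and 5149 CPM and SGL at 6347 to 6407 CPM.

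Hsp90 of the cytosol and the small heat shock protein showed that order of libraries too. Heat shock protein 83 (LOC114119293) had 3421, 2696 and 2545 CPM in RGL and 2702, 2659 and 2653 CPM in SGL (0.11 ± 0.13, adjusted p = 0.542). RGL replicate 1 was the highest of all libraries, replicate 2 lay within the SGL range and replicate 3 below it. The alpha-crystallin B chain gene (LOC114130139), the only small heat shock protein found by the rule, had 355, 290.5 and 250.3 CPM in RGL and 275, 283 and 267 CPM in SGL (0.12 ± 0.13, adjusted p = 0.493). The log2 ratio of RGL replicate 1 over the other RGL libraries was 0.38 for Hsp83 and 0.39 for the crystallin. Without RGL replicate 1 both signs turned, with log2 fold changes of -0.028 for Hsp83 (LOC114119293, adjusted p = 0.706) and -0.023 for the crystallin (LOC114130139, adjusted p = 0.78). Neither gene was called in any of the 13 alternative settings. The mitochondrial heat shock protein 75 kDa (LOC114130147), an Hsp90 of that organelle and the RefSeq neighbour of the crystallin gene, had a log2 fold change of -0.06 ± 0.12 (adjusted p = 0.721) with all libraries and 0.042 without RGL replicate 1.

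DnaJ proteins, or Hsp40s, bring clients to Hsp70 and set off its ATP hydrolysis. Of the 22 listed, 19 were tested, and 2 were higher (10.5%, where 21.4% of all genes were) and 1 was lower (5.26%, where 14.4% were) in RGL, with a median log2 fold change of -0.01. DnaJ homolog subfamily A member 1 (LOC114122556), a cytosolic partner of Hsp70, had 1315, 1188 and 1201 CPM in RGL and 1846, 1832 and 1815 CPM in SGL. All RGL libraries were below all SGL libraries, and the gene was 32.6% lower (-0.57 ± 0.10, adjusted p = 0.00278), the greatest fall among the chaperones. It was the only one of the 3 falls called in all 13 alternative settings. Subfamily C member 5-like (LOC114122611), which in Drosophila and mammals is the cysteine string protein of synaptic vesicles, had 113, 108 and 103 CPM in RGL and 88.6, 85.0 and 89.2 CPM in SGL (0.31 ± 0.08, adjusted p = 0.0182). Subfamily C member 22 (LOC114124281), a membrane protein, had 43.4, 44.8 and 37.2 CPM in RGL and 32.3, 31.5 and 32.7 CPM in SGL (0.38 ± 0.11, adjusted p = 0.0237). Both were non-overlapping between strains, and both calls were lost with library totals alone, without RGL replicate 2 and without any 1 of the SGL libraries. They were also lost with the replicate number as a block. In these settings the adjusted p was at most 0.189 for member 5-like and 0.158 for member 22. The other 16 were not called, with log2 fold changes between -0.29 and 0.28. The 5 that are homologs of DnaJ proteins of the ER in mammals leaned both ways. The shv gene (LOC114127272) had 74.0, 88.7 and 87.1 CPM in RGL and 68.5, 67.4 and 70.03 CPM in SGL (0.28 ± 0.10, adjusted p = 0.0505). Subfamily C member 3 (LOC114131429), an inhibitor of eIF2-alpha kinases, had 109, 106 and 103 CPM in RGL and 93.4, 94.6 and 90.2 CPM in SGL (0.19 ± 0.08, adjusted p = 0.0809). The strains did not overlap in either gene. Subfamily C member 1 (LOC114124430) had a log2 fold change of 0.16 ± 0.08 (adjusted p = 0.129), with each RGL library above those of SGL. Subfamily C member 16 (LOC114122776) had 101, 105 and 108 CPM in RGL and 120.0, 119.9 and 116 CPM in SGL (-0.18 ± 0.08, adjusted p = 0.0984), with each RGL library below those of SGL. Subfamily B member 14-like (LOC114131064) was at -0.11 ± 0.11 (adjusted p = 0.451). Another 4 DnaJ genes that were not called turned sign without RGL replicate 1: LOC114131553 was at -0.11 with all libraries and 0.093 without it, and LOC114122646, LOC114128374 and LOC114122488 were between -0.015 and -0.0089 with all libraries and between 0.027 and 0.043 without it. Calls were also gained without that library in edgeR's quasi-likelihood test. Then shv was higher at 0.36 (adjusted p = 0.000112), member 1 at 0.20 (adjusted p = 0.00643) and member 3 at 0.18 (adjusted p = 0.0219). Subfamily C member 2 (LOC114131848) was higher at 0.20 (adjusted p = 0.0123), against 0.07 with all libraries (adjusted p = 0.687). Member 16 was lower at -0.16 (adjusted p = 0.034).

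Among the co-chaperones of Hsp90, 2 genes described as activators of the 90 kDa heat shock protein ATPase (AHA1) moved in opposite directions. The homolog 2-like gene (LOC114125034), a partial model that RefSeq flags as of low quality, had 58.5, 63.7 and 65.5 CPM in RGL and 41.0, 40.5 and 37.3 CPM in SGL (0.66 ± 0.09, adjusted p = 0.00111). The homolog 1-like gene (LOC114125042) had 54.96, 53.8 and 64.8 CPM in RGL and 72.6, 79.6 and 71.7 CPM in SGL (-0.37 ± 0.10, adjusted p = 0.0245). The strains did not overlap for either gene, but their sum was 120.4 ± 8.78 CPM in RGL and 114 ± 5.61 CPM in SGL (SD, n = 3 each) and did overlap. Any reads shared by the 2 models cannot be told apart here. The call of the homolog 1-like gene was lost without RGL replicate 2 and without any 1 of the SGL libraries (adjusted p at most 0.109). It was also lost with the replicate number as a block. BAG family molecular chaperone regulator 2 (LOC114130188), which regulates Hsp70, had 10.8, 10.97 and 12.3 CPM in RGL and 16.0, 13.4 and 13.5 CPM in SGL (-0.33 ± 0.14, adjusted p = 0.100).

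Prefoldin, a ring of several kinds of subunit that hands actin and tubulin to TCP-1, did not move as one. Of 7 genes, 1 was higher and 1 lower in RGL, with a median log2 fold change of 0.01. That is 14.3% in each direction, where 21.4% of all genes tested were higher and 14.4% lower. Prefoldin subunit 5 (LOC114121946) had 46.4, 41.8 and 45.5 CPM in RGL and 34.6, 32.0 and 27.4 CPM in SGL (0.51 ± 0.11, adjusted p = 0.01), a call lost with library totals alone and without SGL replicate 3 (adjusted p at most 0.0586). A subunit 1-like gene (LOC114122285) had 15.4, 17.4 and 18.1 CPM in RGL and 23.7, 23.3 and 21.6 CPM in SGL (-0.43 ± 0.12, adjusted p = 0.0229). The second subunit 1-like gene (LOC114122310) had 7.86, 9.47 and 9.52 CPM in RGL and 11.9, 12.1 and 11.3 CPM in SGL (-0.39 ± 0.14, adjusted p = 0.0646). None of these 3 genes overlapped between strains, and the subunit 1-like genes together averaged 25.9 ± 2.31 CPM in RGL and 34.6 ± 1.5 CPM in SGL. The fall of LOC114122285 was not called without RGL replicate 2 or without any 1 of the SGL libraries (adjusted p at most 0.0999). It was also not called with the replicate number as a block. Subunit 3 (LOC114126980), at 49.2 ± 6.59 FPKM in RGL and 49.4 ± 3.13 FPKM in SGL, was the most abundant per length over all libraries, though subunit 6 (LOC114124591) was slightly above it in SGL, at 46.7 ± 10.2 FPKM in RGL and 50.4 ± 1.65 FPKM in SGL. Subunit 3 had a log2 fold change of 0.12 ± 0.10 (adjusted p = 0.346). Subunits 2, 4 and 6 had log2 fold changes of -0.06, 0.22 and 0.01 with adjusted p of 0.714, 0.36 and 0.944. Subunit 4 (LOC114128023) was called higher without RGL replicate 1, at 0.37 (adjusted p = 0.00722). The difference between prefoldin and TCP-1 was not tested.

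The rule also took in lambda-crystallin (LOC114126889), which is related to dehydrogenases and is no small heat shock protein. It had 102, 93.7 and 101 CPM in RGL and 65.5, 77.4 and 65.5 CPM in SGL (0.51 ± 0.10, adjusted p = 0.00466). Without it and T-complex protein 11-like protein 1, the count of higher chaperones was 19.

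Genes that work with the chaperones were counted from 5 lists of product descriptions, 56 genes of which 54 were tested. In all, 12 were higher (22.2%, where 21.4% of all genes tested were) and 5 lower (9.26%, where 14.4% were) in RGL, with a median of 0.08. The share of higher genes was thus near that of all genes. The counts of higher and lower partner genes were 24 and 10 without RGL replicate 1, 6 and 3 without RGL replicate 2, and 5 and 1 without any 1 of the SGL libraries. With library totals alone 5 were higher and 5 lower. The counts over all genes moved in these settings too, from 2383 higher and 1611 lower with all libraries. They were 3249 and 2826 without RGL replicate 1, 1922 and 1173 without RGL replicate 2, and 1759 and 2322 with library totals alone. Without 1 SGL library they were 1593 to 1692 and 788 to 812. Heat shock factor (LOC114127694), the transcription factor that induces heat shock genes, had 42.8, 41.2 and 46.6 CPM in RGL and 61.0, 56.7 and 64.7 CPM in SGL. Every RGL library was below every SGL library, and the gene was lower in RGL (-0.48 ± 0.10, adjusted p = 0.00592) and was called in 13 of 13 alternative settings. Heat shock factor-binding protein 1 (LOC114125501), which restrains heat shock factor in worms and mammals, had 76.6, 65.4 and 56.5 CPM in RGL and 57.5, 53.0 and 50.3 CPM in SGL (0.30 ± 0.12, adjusted p = 0.0907). Of 7 genes listed as partners of Hsp70 and Hsp90, such as Cdc37, stress-induced-phosphoprotein 1 and the mitochondrial GrpE homolog, none was called by edgeR, DESeq2 or limma-voom, and none had an unadjusted p under 0.05. The list also took in protein lethal(2)essential for life (LOC114123128), at 279 FPKM in RGL and 254.5 FPKM in SGL (0.27 ± 0.12, adjusted p = 0.112). Whether its product is a partner of either protein was not tested.

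In the ER folding and stress list, 5 of 15 genes tested were higher (33.3%, where 21.4% of all genes tested were). Another 2 were lower (13.3%, where 14.4% were). Protein disulfide-isomerase A6 (LOC114123853), which rearranges disulfide bonds, had 306, 242 and 257 CPM in RGL and 152, 146 and 149 CPM in SGL (0.85 ± 0.10, adjusted p = 0.000525). Sel-1 homolog 1 (LOC114128828), part of the machinery that removes misfolded ER proteins, had 155, 152 and 143 CPM in RGL and 97.0, 104 and 102 CPM in SGL (0.57 ± 0.08, adjusted p = 0.000954). Each RGL library was above each SGL library for both genes. An ero1-like gene (LOC114126815), a thiol oxidase that recharges disulfide-isomerases, had 7.49, 10.7 and 11.8 CPM in RGL and 15.4, 16.6 and 15.1 CPM in SGL (-0.64 ± 0.18, adjusted p = 0.0254). X-box-binding protein 1 (LOC114126958), a transcription factor of the unfolded protein response, had 208, 202 and 191 CPM in RGL and 230.2, 237 and 242 CPM in SGL (-0.24 ± 0.08, adjusted p = 0.0423). Both of these lay below SGL in every RGL library. The total level of the X-box-binding gene does not tell its spliced form apart. The disulfide-isomerase A6 and sel-1 calls were made in 13 of 13 alternative settings, those of ero1-like in 10 (adjusted p at most 0.0979) and of X-box-binding protein 1 in 6 (at most 0.162). Among the other higher genes, disulfide-isomerase A3 (LOC114127567) was called in all 13. SIL1 (LOC114123632) was called in 7 (adjusted p at most 0.216) and a further disulfide-isomerase (LOC114126627) in 6 (at most 0.301).

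In the list of quality control proteases, which degrade misfolded proteins, 4 of 6 genes were higher (66.7%, where 21.4% of all genes tested were). None was lower in edgeR, DESeq2, limma-voom or at an unadjusted p under 0.05. The list was meant for the mitochondrion, but its text pattern also took in a peroxisomal-like Lon protease homolog (LOC114122432), which was not called. AFG3-like protein 2 (LOC114123696) had 152, 174 and 183 CPM in RGL and 115, 129.7 and 111 CPM in SGL (0.52 ± 0.10, adjusted p = 0.00554). Its partner paraplegin (LOC114125579) had 57.3, 68.02 and 71.7 CPM in RGL and 50.8, 54.1 and 49.4 CPM in SGL (0.35 ± 0.11, adjusted p = 0.0334). The strains did not overlap in either gene. Of 24 peptidyl-prolyl isomerases tested, enzymes that turn proline bonds during folding, 3 were higher and 2 lower. These shares of 12.5% and 8.33% were below the 21.4% and 14.4% of all genes tested. Isomerase 5 (LOC114124286) had 603, 487 and 419.6 CPM in RGL and 304, 296 and 304 CPM in SGL (0.74 ± 0.13, adjusted p = 0.00349). An FKBP62-like gene (LOC114128917) had 31.7, 18.3 and 21.6 CPM in RGL and 15.1, 14.4 and 13.9 CPM in SGL (0.72 ± 0.20, adjusted p = 0.0236). In both, RGL replicate 1 was the highest library and the other RGL libraries were still above SGL. A sig-7-like gene (LOC114124569) had 10.1, 15.6 and 15.7 CPM in RGL and 22.5, 22.3 and 22.2 CPM in SGL (-0.69 ± 0.18, adjusted p = 0.0169). Isomerase H (LOC114131334) had 14.2, 16.3 and 22.7 CPM in RGL and 25.8, 27.9 and 28.7 CPM in SGL (-0.63 ± 0.18, adjusted p = 0.0244). Their RGL libraries were all below those of SGL. Of these, isomerase 5 was called in 13 of 13 alternative settings, AFG3-like protein 2 in 12, FKBP62-like and sig-7-like in 10, isomerase H in 9 and paraplegin in 6, where the adjusted p reached 0.288. The other higher proteases were clpX-like (LOC114119455), called in 8 (adjusted p at most 0.208), and Lon (LOC114125525), called in 6 (at most 0.342).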

How the data were processed

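RNA-seq of 6 libraries of pooled whole bodies was analysed. Libraries were made with an NEBNext kit per the labels' protocols, and fastp 0.22.0 and HISAT2 are named in the submitters' processing notes. For the counter, annotation, genome build and strand setting the sources used here give nothing, so reads of overlapping or antisense genes cannot be separated. The authors deposited raw counts per gene and FPKM values, per the file headers, with the adjusted p-values and log2 fold changes of their DESeq2 comparison.

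Groups were taken from the sample titles. Counts were tested in R 4.3.3 with edgeR 4.0.16 (TMM scaling; filterByExpr at its minimum of 10 counts, 15 in total; the robust quasi-likelihood F test with strain as the only term) and Benjamini-Hochberg adjustment over all 11149 genes tested. SE is the absolute log2 fold change over the square root of F. The deposited FPKM served only to describe levels per length. Within-strain ratios used CPM plus 0.5. The fit was tested on simulated counts with known changes. It recovered 22.4% of changes of log2 size 0.5, 76.1% of those of size 1 and 92.4% of those of size 2. Of 135 simulated calls, 8 were false. Only 66 to 67 genes were changed per size, far fewer than were called in the data, so these shares need not hold there.

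The chaperones, partner lists and marker lists were chosen with earlier results of these data known. Named genes were every called chaperone, the most abundant of each class by FPKM, the greatest change in a class with no call, the heat shock factor genes and up to 2 called partner genes per list and direction; others were added after their values were seen. Of the 67 genes, 60 matched the RefSeq table of ASM2018417v2, used for neighbours only; a planned search of promoters was not run. Alternatives were the Wald test of DESeq2 1.42.0, limma-voom (limma 3.58.1), DESeq2 size factors, library totals in place of TMM, other filters, membership by Swiss-Prot text, the replicate number as a block and leaving out each library. Python 3.11.15, pandas 2.3.3 and matplotlib 3.10.9 made tables and figures.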

Additional observations from a re-analysis of the deposited data

How the results depend on the processing

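Of the 23 called chaperones, 12 were called in the same direction in all 13 alternative settings and 11 lost the call in at least 1. Scaling by library totals alone gave 12 chaperones higher and 6 lower with a median of -0.035, 5 partner genes higher, 1 ER chaperone higher, 7 TCP-1 subunits higher, and 1 Hsp70 gene higher and 1 lower. The DESeq2 Wald test gave 6 chaperones lower. Membership by Swiss-Prot text alone (56 genes, 48 shared) gave 17 higher and 2 lower with a median of 0.13.

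Leaving out each library in turn gave 11 to 27 chaperones higher, 1 to 11 lower and a median of 0.09 to 0.15. It gave 5 to 24 partner genes higher and 1 to 10 lower, 1 to 4 ER chaperones higher, 7 to 9 TCP-1 subunits higher, and 1 to 4 Hsp70 genes higher and 0 to 7 lower. The highest counts came without RGL replicate 1; for TCP-1, leaving out RGL replicate 2 or 3 gave as many. Without RGL replicate 1, 3 A1-like Hsp70 genes reversed: LOC114122099 was at -0.16 (0.37 at most without another library), LOC114132056 at -0.16 (0.24 at most) and LOC114133077 at -0.21 (0.22 at most); the cause was not tested. Without an SGL library, 1593 to 1692 genes of the whole table were called higher and 788 to 812 lower.

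Libraries of the same number did not deviate together (correlations of -0.01, -0.03 and -0.02), so no shared effect of the number was seen. With 3 libraries per strain this cannot tell whether samples of the same number were handled together. With the replicate number as a block, 15 chaperones were higher and 1 lower, 2 ER chaperones and 8 TCP-1 subunits were higher, and 2109 and 1313 genes of the whole table were called higher and lower.

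With 3 libraries per strain and changes this small, a gene that was not called is not shown to be equal in the strains.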
